A study of Mus musculus with 19 samples.

Results

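The ubiquitin-specific proteases (USPs) were followed in the brains of male mice, wild type (wt) or transgenic for SCA3, that had been given CCI-779 or placebo. Members were all probe sets whose single gene symbol in the array's annotation begins with Usp and a digit, with Usp15, Usp4, Usp11 and Usp9y left out. These were 118 of 45101 probe sets, from 47 of the 18194 genes that the array names by a single symbol. The rule uses the symbol and no measured value. Of the 118 probe sets, 82 passed the filter on low values (mean log2 intensity, across the 19 arrays, of 4 or more), and they represent 39 of the 47 genes. Usp44, Usp43, Usp50, Usp46os2, Usp26, Usp17la, Usp49 and Usp18 had no probe set above it. Of the members, Usp6nl is a GTPase-activating protein of Rab proteins named for its likeness to a USP, and Usp46os2 is an RNA gene named for lying opposite Usp46, so neither encodes a USP.

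Spinocerebellar ataxia type 3 (SCA3) is caused by an expanded polyglutamine tract in ataxin-3, which is itself a deubiquitinase of another family. CCI-779 (temsirolimus) is an ester of rapamycin and inhibits mTOR. Mice were 5 weeks old at the first of the intraperitoneal injections, which were given 3 times per week over 6 weeks at 20 mg/kg, and placebo was injected on the same schedule. The groups were wt placebo (4 arrays), wt CCI-779 (5 arrays), SCA3 placebo (5 arrays) and SCA3 CCI-779 (5 arrays). The promoter, line and repeat length of the transgene are not given in the sources used here. The labels do not say whether every array came from its own mouse, and the p-values therefore reflect variation among these samples that could be technical.

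USPs are the largest family of deubiquitinases, cysteine proteases that cut ubiquitin from proteins or trim ubiquitin chains. By doing so they spare substrates from the proteasome, recycle receptors at endosomes, and remove ubiquitin from histones and DNA repair proteins. In neurons, Usp14 works at the proteasome, and its loss causes ataxia in the axJ mouse.

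All 11 neuron markers, 10 astrocyte markers and 11 of 12 oligodendrocyte markers were measured, whereas 5 of 6 skeletal muscle genes lay under the filter. The mean intensity of an array ran from 443 to 469. SCA3 CCI-779 replicates 2 and 5 and wt CCI-779 replicate 1 stood apart from the other arrays. The label of this wt array gives no number, and replicate 1 is only its name here. Counts of USP genes, and the drug differences of several that passed, are given with and without the arrays that stood apart. Values of genes outside the family, and of most USP genes that did not pass, are given from all arrays only. Bacterial control transcripts spiked into the samples were dimmer under the drug, at a mean log2 intensity of 9.89 ± 0.25 (SD, n = 5) against 10.77 ± 0.32 (SD, n = 4) in wt and 10.21 ± 0.08 (SD, n = 5) against 11.01 ± 0.18 (SD, n = 5) in SCA3. The spike-in levels of drug and placebo arrays did not overlap in either genotype, so this shift and the drug cannot be told apart. A sign of RNA quality, how much brighter (log2) GAPDH was at its 3′ than at its 5′ end, did not overlap either. It was −0.58 to −0.50 in wt placebo and −0.44 to 0.28 in wt CCI-779 mice, and −0.53 to −0.47 and −0.43 to −0.28 in SCA3. The value of 0.28 was that of wt CCI-779 replicate 1, and the other 4 arrays of its group were at −0.44 to −0.39. In bulk tissue, fewer cells of a type and less RNA per cell cannot be told apart either.

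Under CCI-779, USP transcripts that passed the test rose, by small amounts. In wt mice 8 of 39 USP genes rose and 0 fell by limma (Benjamini-Hochberg adjusted p under 0.05), against a background of 11.5% of all 10454 genes that rose and 1.64% that fell. The 8 include Usp40, which passed the filter only through its brighter drug groups, and 7 are left without it. In SCA3 mice 3 of 39 rose and 0 fell, against 11% of all genes that rose and 6.09% that fell. These counts are 20.5% of the USP genes in wt, where 13.1% of all genes passed in either direction, and 7.69% in SCA3, where 17.1% passed. The median log2 difference of the 39 genes was 0.09 in wt, where that of all genes was 0.08. In SCA3 it was 0.02, where that of all genes was 0.00. Without SCA3 CCI-779 replicates 2 and 5 the USP median in SCA3 was 0.09, and that of all genes was not taken. Then 2 USP genes passed in SCA3 (Usp31 and Usp29, both higher), beside 5.88% of all probe sets. With all arrays, 13 of 39 USP genes were at an unadjusted p under 0.05 in wt, beside 3153 of all 10454 genes. In SCA3 there were 10 of 39, beside 3456 of 10454. Of the genes that passed among all genes, 87.6% rose in wt and 64.4% in SCA3, and these shares were 68% and 49.5% after a further quantile normalization and 51.1% and 41.7% after each array was centred on its median. Centring moved the median of all genes in wt from 0.08 to −0.03, and it left 1 USP gene that rose (Usp29) and 1 that fell (Usp39) in wt, with 2 and 1 in SCA3. With quantile normalization 3 rose and 1 fell in wt, and 2 rose and 1 fell in SCA3. Of all 10454 genes, 574 rose and 549 fell in wt after centring, and 877 rose and 1227 fell in SCA3. With quantile normalization 698 genes rose and 329 fell in wt, and 1006 rose and 1027 fell in SCA3. Of all tested probe sets, 10.4% passed in wt and 17.3% in SCA3 after centring, and 9.47% and 16.8% with quantile normalization, beside 11.9% and 15.2% as deposited.

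Usp29, Usp31 and Usp10 rose in both genotypes, and no USP gene passed in opposite directions. With only the compared groups in the fit, Usp29 still passed in both genotypes, while Usp31 and Usp10 passed in SCA3 and not in wt. The drug comparisons of wt and SCA3 share no arrays. In the main fit, however, their p-values rest on a spread estimated from the arrays of all groups, so the calls in the genotypes are not independent. The differences had the same sign in 26 of 39 USP genes (66.7%), beside 72.1% of all genes. Across the 39 genes the correlation of the differences was 0.729, and across all genes it was 0.706, over genes that are not independent and over arrays that share the dimmer spike-ins under the drug. The plot of drug differences by gene shows the 39 genes in both genotypes.

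**Figure D1:**
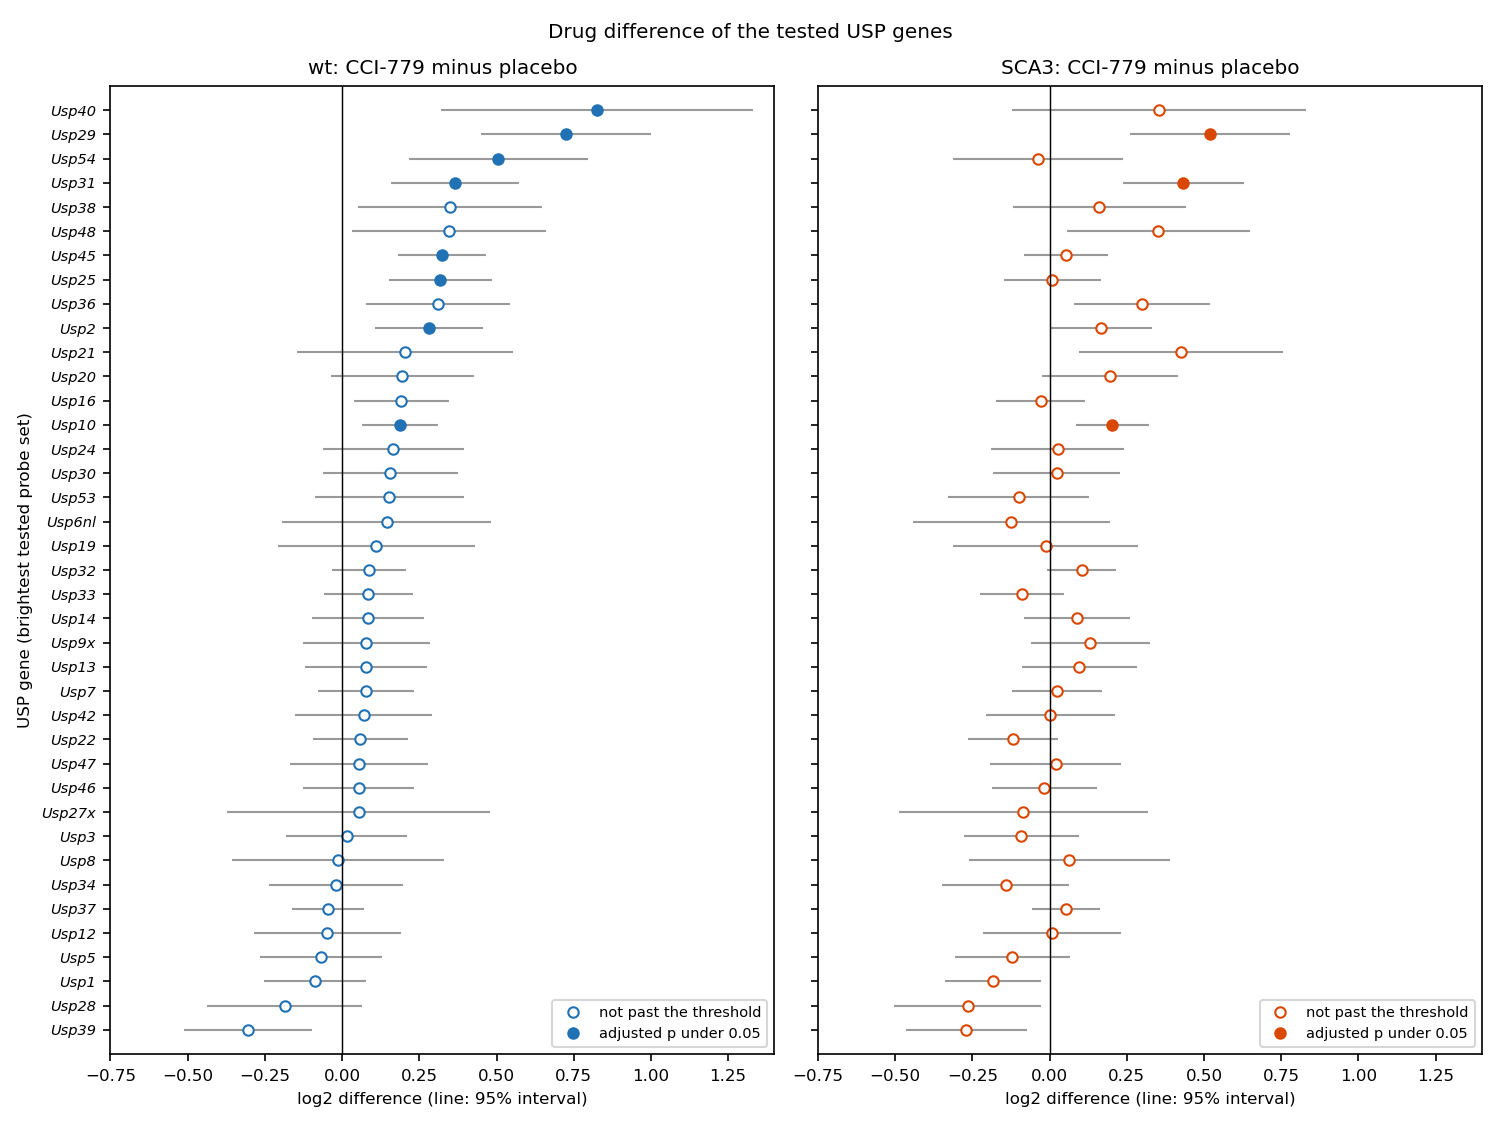
Log2 difference between CCI-779 and placebo (x axis) for the 39 tested USP genes (y axis, ordered by the wt difference) in wt (left) and SCA3 mice (right), with 95% intervals as lines and genes past an adjusted p of 0.05 filled. The 8 filled genes in wt and the 3 in SCA3 all lie above 0, and Usp29, Usp31 and Usp10 are filled in both.

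The upstream sequences of the genes that rose in both genotypes are shown because these genes moved in the same direction. Each run is the 250 bases before the annotated start from RefSeq (GRCm38.p6), written 5′ to 3′ on the strand of the gene. Capitals mark matches, on either strand, to an E-box (CACGTG), a cAMP response element (TGACGTCA), a GC box (GGGCGG) or a TATA box (TATAAA).
Usp29, chr7:6730333-6730582, + strand: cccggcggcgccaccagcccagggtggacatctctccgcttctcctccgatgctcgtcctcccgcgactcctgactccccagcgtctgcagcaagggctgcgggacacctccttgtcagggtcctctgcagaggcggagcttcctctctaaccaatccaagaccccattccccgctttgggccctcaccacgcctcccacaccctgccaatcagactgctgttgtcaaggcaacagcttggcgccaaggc
Usp31, chr7:121707443-121707692, - strand: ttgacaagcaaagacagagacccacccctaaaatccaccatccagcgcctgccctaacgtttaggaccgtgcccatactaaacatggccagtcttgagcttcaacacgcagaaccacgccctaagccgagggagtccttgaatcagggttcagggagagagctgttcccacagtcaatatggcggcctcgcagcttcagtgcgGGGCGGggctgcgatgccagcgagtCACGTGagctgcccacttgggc
Usp10, chr8:119910110-119910359, + strand: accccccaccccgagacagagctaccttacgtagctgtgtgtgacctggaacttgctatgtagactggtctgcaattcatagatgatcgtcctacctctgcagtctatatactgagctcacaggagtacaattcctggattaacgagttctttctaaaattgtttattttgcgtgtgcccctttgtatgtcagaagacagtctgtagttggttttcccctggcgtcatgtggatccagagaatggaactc
The Usp31 stretch held 1 E-box and 1 GC box, and the stretches of Usp29 and Usp10 held none of the motifs. Of 32851 such stretches in the table, 6.0% held an E-box, 1.5% a cAMP response element, 32.7% a GC box and 12.4% a TATA box. Of the 31 stretches that belong to 30 of the tested USP genes, 9.7% held an E-box (those of Usp16, Usp31 and Usp6nl), 0 held a cAMP response element, 74.2% a GC box and 6.5% a TATA box. The G and C content was 64.8% for Usp29, 58.4% for Usp31 and 46.4% for Usp10, beside a median of 52.4% over all stretches and 65.6% over those of the tested USP genes.

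Usp29 (probe set 1419237_at) had the smallest p of the family under the drug. It lies in the Peg3 imprinted domain, where it is transcribed from the paternal allele. Its log2 intensity was 7.65, 7.53, 7.77 and 7.30 on the wt placebo arrays and 8.45, 8.12, 8.33, 8.44 and 8.09 on the wt CCI-779 arrays. In SCA3 it was 7.93, 7.48, 8.02, 7.51 and 7.71 under placebo and 8.28, 8.14, 8.19, 8.57 and 8.09 under CCI-779. Every CCI-779 array lay above every placebo array of its genotype. Usp29 was 1.65-fold higher in wt (log2 0.73, SE 0.13, adjusted p = 0.00307) and 1.43-fold higher in SCA3 (log2 0.52, SE 0.12, adjusted p = 0.00987). The rise was 0.69 in wt without replicate 1 (adjusted p = 0.00789) and 0.61 in SCA3 without replicates 2 and 5 (adjusted p = 0.0221). With a covariate for the spike-in level the differences of Usp29 were 0.58 (SE 0.24, adjusted p = 0.523) and 0.39 (SE 0.22, adjusted p = 0.484).

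Usp31 (1434724_at) rose by similar amounts in both genotypes. Its log2 intensity in SCA3 was 8.67, 8.73, 8.64, 8.65 and 8.74 under placebo and 8.95, 9.31, 8.95, 9.36 and 9.03 under CCI-779. In wt it was 8.74, 8.56, 8.91 and 8.65 under placebo and 9.32, 8.96, 8.95, 9.12 and 9.04 under CCI-779. The groups did not overlap in either genotype, and in wt they were closest, at 8.91 and 8.95. Usp31 was 1.35-fold higher in SCA3 (log2 0.43, SE 0.09, adjusted p = 0.00562) and 1.29-fold higher in wt (log2 0.36, SE 0.10, adjusted p = 0.0245). In SCA3 it was 0.40 higher without replicates 2 and 5 (adjusted p = 0.0379), and in wt it did not pass without replicate 1 (0.30, adjusted p = 0.057). With a spike-in covariate Usp31 differed by 0.39 (SE 0.17, adjusted p = 0.374) in SCA3 and 0.32 (SE 0.19, adjusted p = 0.659) in wt.

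Usp10 (1448230_at) acts on p53 and binds G3BP proteins of stress granules. In SCA3 its log2 intensity was 9.28, 9.14, 9.14, 9.10 and 9.10 under placebo and 9.30, 9.33, 9.33, 9.34 and 9.47 under CCI-779. In wt it was 9.14, 9.12, 9.17 and 9.22 under placebo and 9.43, 9.40, 9.37, 9.37 and 9.18 under CCI-779. The groups were apart in SCA3, and in wt replicate 5 under the drug lay among the placebo arrays. The rise of Usp10 was 1.15-fold in SCA3 (log2 0.20, SE 0.06, adjusted p = 0.021) and 1.14-fold in wt (log2 0.19, SE 0.06, adjusted p = 0.0476). It did not pass in SCA3 without replicates 2 and 5 (0.17, adjusted p = 0.113), nor in wt without replicate 1 (0.17, adjusted p = 0.0986). After each array was centred on its median the Usp10 differences were 0.14 (adjusted p = 0.103) and 0.08 (adjusted p = 0.388).

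Usp45, Usp25, Usp54 and Usp2 rose in wt mice and did not pass in SCA3, and Usp40 is described after them. The interaction of genotype and drug, which tests whether the drug differences of the genotypes differ, passed for none of the 5 (adjusted p of 0.557 to 0.805). For Usp45, Usp25, Usp54 and Usp2, replicates 2 and 5, which stood apart, were the lowest of the SCA3 drug arrays. Without them none of these genes passed in SCA3 either, with fewer drug arrays, and the size of their SCA3 differences was not taken. For Usp2 the other SCA3 drug arrays (10.78, 10.55 and 10.72) lay above every SCA3 placebo array (10.52 at most). For Usp45, Usp25 and Usp54 they overlapped the placebo arrays. Usp2 passed in SCA3 when wt CCI-779 replicate 1 was left out as well, beside 11.4% of all probe sets. A rise confined to wt is therefore not shown. Usp45 (1427990_at), which acts on the DNA repair nuclease subunit Ercc1, was at 10.89, 10.80, 10.68 and 10.62 in wt placebo and at 11.09, 10.95, 11.14, 11.10 and 11.06 in wt CCI-779 mice, with no overlap. It was 1.25-fold higher in wt (log2 0.32, SE 0.07, adjusted p = 0.00661) and this call held without any 1 of the 19 arrays. In SCA3 Usp45 was at 10.98, 10.83, 10.85, 10.71 and 10.80 under placebo and at 10.95, 10.83, 10.91, 10.97 and 10.78 under CCI-779, so the groups overlapped (difference 0.05, SE 0.06, adjusted p = 0.621). The interaction of Usp45 was −0.27 (SE 0.09, adjusted p = 0.557).

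Usp25 (1448939_at), a paralog of Usp28, was at 8.66, 8.57, 8.57 and 8.62 in wt placebo and at 9.05, 8.79, 9.0, 8.86 and 8.91 in wt CCI-779 mice. The wt groups did not overlap, and the rise was 1.25-fold (log2 0.32, SE 0.08, adjusted p = 0.0159), kept without any 1 of the 19 arrays. In SCA3, Usp25 was at 8.70, 8.62, 8.50, 8.56 and 8.67 under placebo and at 8.70, 8.60, 8.69, 8.76 and 8.33 under the drug, with a difference of 0.01 (SE 0.07, adjusted p = 0.954). The lowest SCA3 array was the drug replicate 5. With arrays centred on their medians the wt difference of Usp25 was 0.21 (adjusted p = 0.0866), and that of Usp45 was 0.22 (adjusted p = 0.0528). Usp28 differed by −0.19 in wt and −0.27 in SCA3 and did not pass (adjusted p = 0.316 and 0.119).

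Usp54 (1428731_at), a paralog of Usp53, was at 8.44, 8.36, 8.22 and 8.21 in wt placebo and at 9.02, 8.82, 8.95, 8.77 and 8.50 in wt CCI-779 mice, a rise of 1.42-fold (log2 0.51, SE 0.14, adjusted p = 0.0257). In SCA3 it was at 8.20, 8.27, 8.52, 8.56 and 8.87 under placebo and at 8.69, 8.30, 8.38, 8.68 and 8.18 under the drug. The SCA3 groups overlapped throughout, with a difference of −0.04 (SE 0.13, adjusted p = 0.877). The interaction of Usp54, at −0.54 (SE 0.19, adjusted p = 0.567), was the largest of the 39 in size.

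Usp40 (1435901_at) was the dimmest tested member, with a mean of 4.09 just above the filter of 4. Its means were 3.65 in wt placebo and 3.89 in SCA3 placebo mice, under the filter, and 4.47 and 4.24 under CCI-779, so it was tested only because it was brighter there. In wt it was at 4.06, 3.25, 3.98 and 3.31 under placebo and at 5.33, 4.18, 4.70, 4.09 and 4.07 under CCI-779, and in SCA3 at 3.51, 3.72, 4.07, 4.07 and 4.08 and at 4.47, 4.08, 4.06, 4.49 and 4.10. The wt CCI-779 replicate 1 was the brightest, and the wt groups met at 4.06 and 4.07. The log2 difference of Usp40 was 0.82 in wt, 0.61 there without replicate 1, and 0.35 in SCA3, given as a description.

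Usp2 (1417168_a_at), whose transcript is known to cycle with the circadian clock, was at 10.43, 10.18, 10.16 and 10.21 in wt placebo and at 10.62, 10.41, 10.54, 10.58 and 10.50 in wt CCI-779 mice. The highest placebo array, replicate 1, lay just above the lowest drug array. Usp2 rose 1.22-fold in wt (log2 0.28, SE 0.08, adjusted p = 0.0362). In SCA3 it was at 10.46, 10.36, 10.48, 10.27 and 10.52 under placebo and at 10.78, 10.42, 10.55, 10.72 and 10.44 under the drug (difference 0.17, SE 0.08, adjusted p = 0.164). Without wt CCI-779 replicate 1, Usp54 (0.45, adjusted p = 0.0594) and Usp2 (0.26, adjusted p = 0.0757) did not pass in wt.

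**Figure D2:**
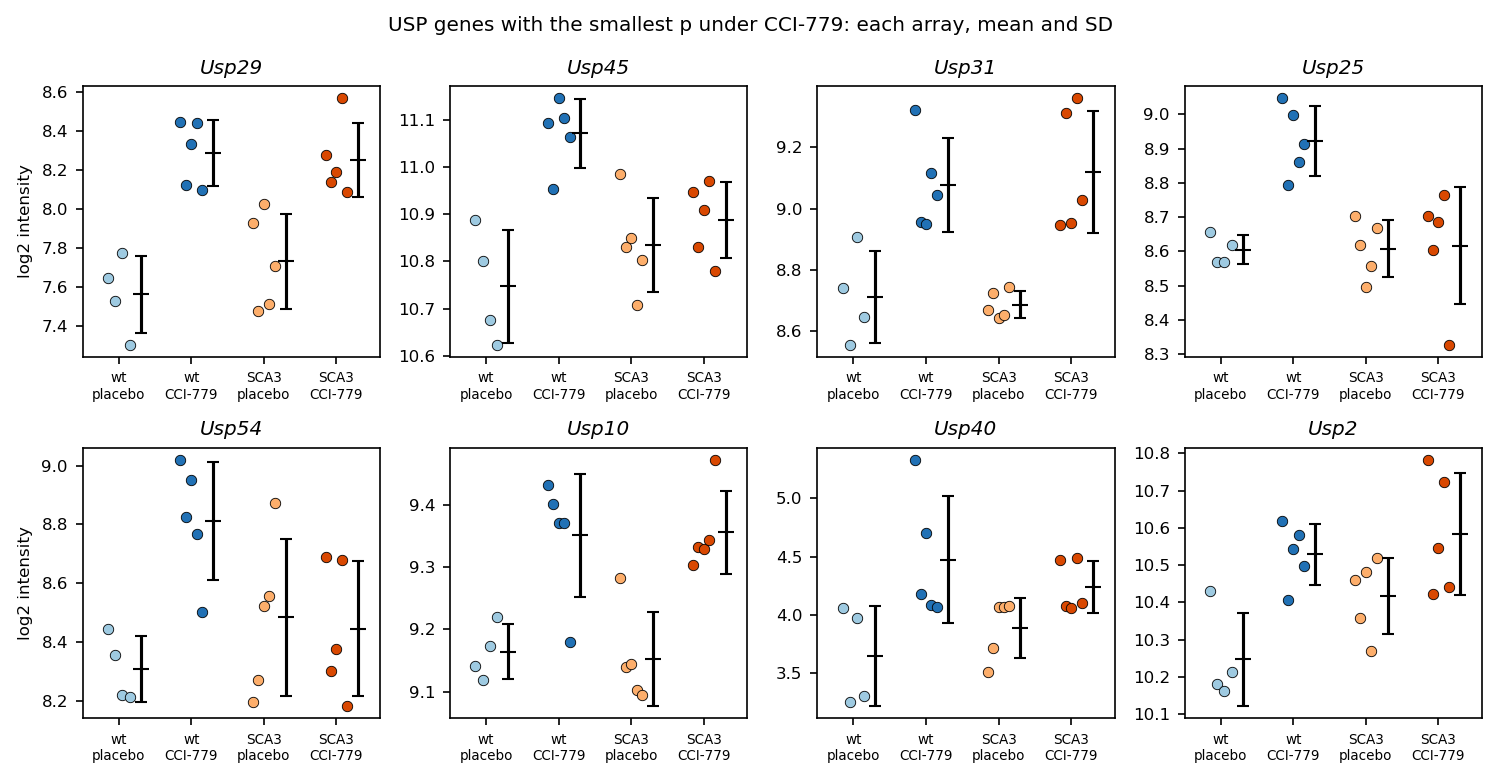
Log2 intensity (y axis, a separate scale in each panel that does not start at 0) of the 8 USP genes with the smallest p under CCI-779, with 1 point per array in the 4 groups (x axis) and the mean and SD beside them. For Usp29 and Usp31 all drug arrays lie above all placebo arrays in both genotypes, while for Usp45, Usp25 and Usp54 the groups separate in wt and overlap in SCA3.

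Counted by groups that do not overlap (16.6% of all genes in wt and 13.2% in SCA3, in either direction), 7 USP genes lay wholly higher under CCI-779 in wt (14.1% of all genes did) and 3 in SCA3 (8.82% of all genes did), and 0 lay wholly lower in either, where 2.42% of all genes did in wt and 4.34% in SCA3. The 7 in wt were Usp25, Usp29, Usp31, Usp36, Usp40, Usp45 and Usp54, of which Usp40 was favoured by the filter. Of these Usp36, a nucleolar deubiquitinase, did not pass the test, at 0.31 in wt (SE 0.11, adjusted p = 0.075) and 0.30 in SCA3 (SE 0.10, adjusted p = 0.0612).

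In the main fit no USP gene fell past the threshold, and Usp39 (1437007_x_at) came nearest. The suffix x marks a probe set whose probes may also bind other transcripts. Usp39 lacks protease activity and works in the spliceosome. In wt mice its mean log2 intensity was 9.34 ± 0.08 (SD, n = 4) with placebo and 9.04 ± 0.17 (SD, n = 5) with the drug. In SCA3 mice the means were 9.18 ± 0.18 (SD, n = 5) with placebo and 8.91 ± 0.13 (SD, n = 5) with the drug. The Usp39 differences were −0.30 in wt (SE 0.10, adjusted p = 0.0529) and −0.27 in SCA3 (SE 0.09, adjusted p = 0.0576). Usp39 passed as lower in 9 of 14 other settings of the analysis in wt and in 6 of 14 in SCA3. Both other scalings of the arrays were among them in each genotype, for instance in SCA3 at −0.33 (adjusted p = 0.0249) after centring on the median. Its other probe set also lay lower, by −0.23 in wt and −0.17 in SCA3, and did not pass (adjusted p = 0.0925 and 0.155).

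Members were described further by what they are known to do. Beside the counts by role, 11.5% of all genes rose and 1.64% fell in wt, and 11% rose and 6.09% fell in SCA3. Of the 5 genes that act at the proteasome, on free chains or on p53, Usp10 rose in both genotypes. Usp14 was at 0.08 in wt and 0.09 in SCA3, Usp5, which takes apart unanchored chains, at −0.07 and −0.12, and its paralog Usp13 at 0.08 and 0.10, and none of these passed (adjusted p of 0.384 to 0.664). Of the 8 genes of receptors, endosomes and synapse, 1 rose in wt (Usp2) and 0 passed in SCA3. Usp8, which works with the ESCRT machinery, was at −0.01 and 0.06. Usp46 and Usp12, whose products bind Wdr48, were at 0.05 and −0.05 in wt and at −0.02 and 0.01 in SCA3.

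Of 13 measured genes of chromatin, DNA damage, nucleolus and splicing, 1 rose in wt (Usp45) and 0 passed in SCA3, with medians of 0.06 and −0.03. Usp22, the deubiquitinase of the SAGA complex, was at 0.06 and −0.12, and Usp1, which acts in the Fanconi anaemia pathway, at −0.09 and −0.18. Usp30, of the outer mitochondrial membrane, was at 0.16 and 0.02, and Usp19, which is anchored in the endoplasmic reticulum, at 0.11 and −0.01. Neither passed in either genotype (adjusted p of 0.335 to 0.962). Another 10 measured USP genes, listed under none of these roles, held 5 that passed as higher in wt, Usp40 among them, and 2 in SCA3. The share of all genes that rose was 11.5% in wt and 11% in SCA3, and no role was tested as a set. The brightest probe sets belonged to Usp32 (mean 12.18), Usp22 (11.64), Usp33 (11.35), Usp45 (10.89) and Usp7 (10.84), although brightness depends on the probe sequences and does not rank the transcripts.

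Several USP genes were measured by more than 1 probe set, and these often disagreed. Of 22 genes with more than 1 tested probe set, 10 had all drug differences of 1 sign in wt and 6 in SCA3. At the level of probe sets, 9 of 82 were higher and 0 lower in wt, beside 9.78% and 2.11% of all 20473 tested, and 5 of 82 were higher and 0 lower in SCA3, beside 10.2% and 4.95% (11.9% and 15.2% in either direction). Usp7, which deubiquitinates p53 and Mdm2, had 7 tested probe sets, named here by their identifiers. Its brightest, 1419920_s_at, was at 0.02 in SCA3 (SE 0.07, adjusted p = 0.845), while 1454948_at rose by 0.51 (SE 0.13, adjusted p = 0.0139) and 1434371_x_at by 0.48 (SE 0.13, adjusted p = 0.0214). The last of these carries the suffix x too.

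On 1454948_at, Usp7 was at 10.18, 10.20, 10.30, 10.25 and 10.47 in SCA3 placebo and at 10.53, 11.10, 10.52, 10.81 and 10.98 in SCA3 CCI-779 mice. The highest were replicates 2 and 5, which stood apart. Without them the difference on 1454948_at was 0.34 (adjusted p = 0.138) and on 1434371_x_at 0.30 (adjusted p = 0.20), so neither passed. In wt these Usp7 probe sets were at 0.29 and 0.24 (adjusted p = 0.166 and 0.268).

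Usp34, which acts on axin in Wnt signalling, rose in wt on 1444437_at by 0.53 (SE 0.14, adjusted p = 0.0195), from 8.19, 8.64, 8.46 and 8.18 to 9.31, 8.72, 8.96, 8.90 and 8.59. These groups overlapped in 1 array of each. On its brightest probe set, 1434392_at, Usp34 was at −0.02 in wt (SE 0.10, adjusted p = 0.921). For Usp45 the other bright probe set differed by 0.13 in wt (adjusted p = 0.265), and for Usp2 by 0.04 (adjusted p = 0.787). Usp29, Usp31, Usp10, Usp25, Usp54 and Usp40 had 1 tested probe set each, so their differences have no second measurement.

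**Figure D3:**
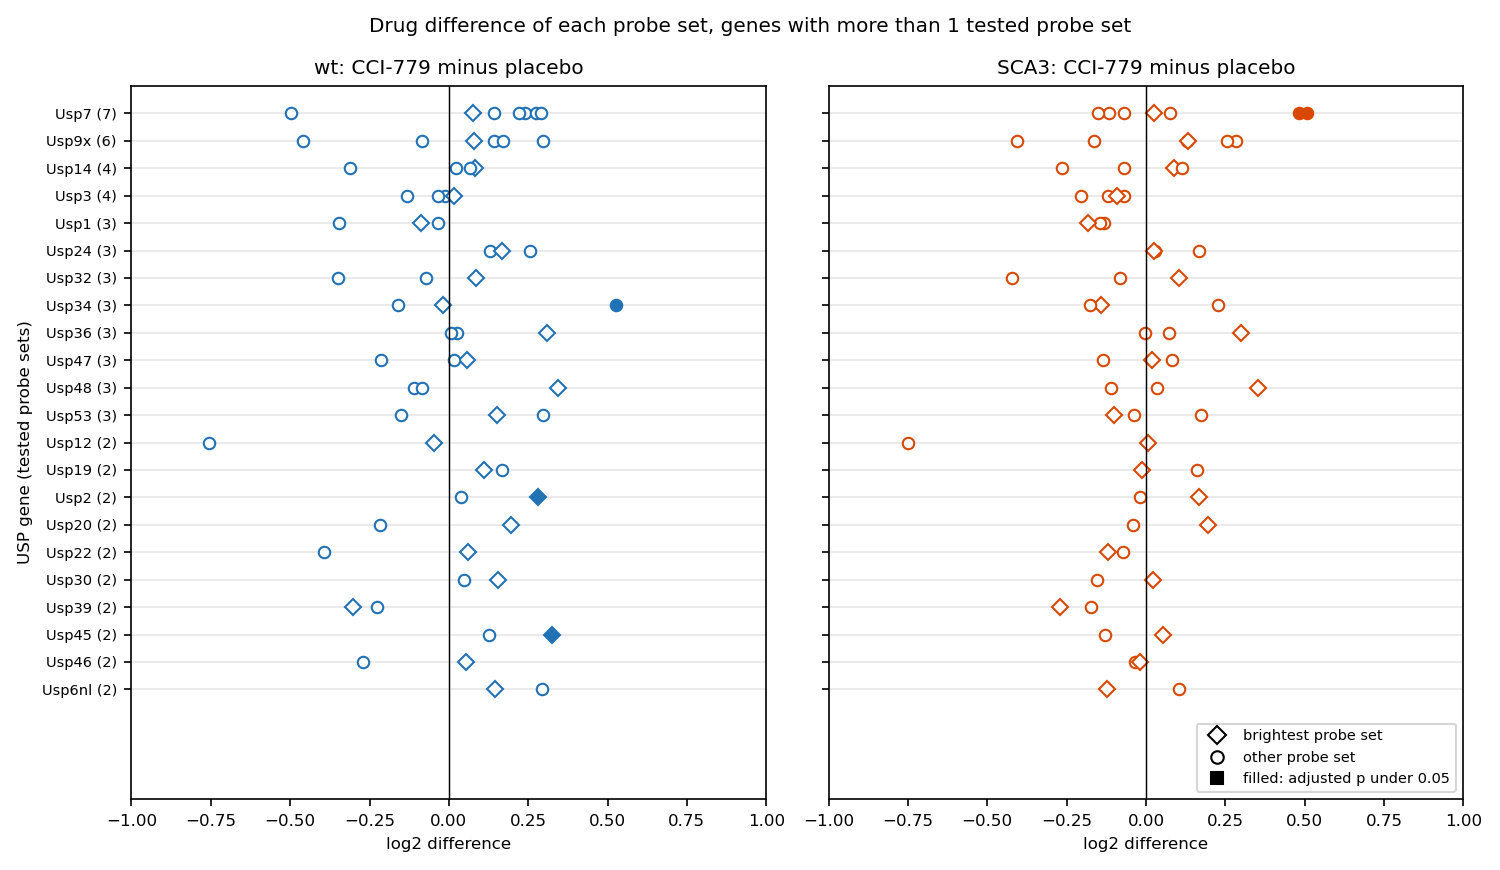
Log2 difference between CCI-779 and placebo (x axis) of each tested probe set of the 22 USP genes with more than 1 (y axis, number of probe sets in brackets), in wt (left) and SCA3 mice (right). Diamonds are the brightest probe set of a gene, circles the others, and filled symbols passed an adjusted p of 0.05, among them the pair of Usp7 circles in SCA3 at 0.48 and 0.51, away from the Usp7 diamond at 0.02.

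The genotype comparisons asked whether the transgene changed USP transcripts. Between SCA3 and wt mice given placebo, 0 of 39 USP genes passed by limma, beside 0 of 10454 genes (0%), and 0 of 39 were at an unadjusted p under 0.05, beside 556 of 10454. None of the 82 probe sets passed (1 at an unadjusted p under 0.05, beside 1177 of 20473), beside 0.00977% of all probe sets in either direction and as lower. The groups overlapped for every tested USP gene, and 2.21% of all genes had groups that did not. The USP differences ran from −0.19 for Usp9x to 0.30 for Usp38. The smallest p-values belonged to Usp38 (0.30, adjusted p = 0.869), Usp2 (0.17, adjusted p = 0.878), Usp9x (−0.19, adjusted p = 0.881), Usp22 (0.13, adjusted p = 0.885) and Usp39 (−0.16, adjusted p = 0.92). For 37 of the 39 genes the 95% interval of the difference lay within 1.5-fold in both directions, before any correction for the number of genes. The intervals had a median half-width of 0.22.

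Between SCA3 and wt mice that both received CCI-779, 0 of 39 USP genes passed by limma, beside 0.0191% of all genes, with 7 of 39 at an unadjusted p under 0.05, beside 1892 of 10454. Of the 82 probe sets 0 passed, with 12 at an unadjusted p under 0.05 (3163 of 20473 over all), beside 0.00977% of all probe sets in either direction and as lower. The smallest p-values were those of Usp25 (−0.31, SE 0.07, adjusted p = 0.13), Usp53 (−0.42, adjusted p = 0.139), Usp33 (−0.20, adjusted p = 0.19), Usp1 (−0.21, adjusted p = 0.206) and Usp45 (−0.18, adjusted p = 0.207). All SCA3 arrays lay below all wt arrays for Usp25, Usp53 and Usp33, a pattern that 2.42% of all genes showed (3% in either direction) and that no USP gene showed in the other direction. The median of the 39 differences was −0.06, and that of all genes −0.04. Replicates 2 and 5, which stood apart, were the lowest SCA3 arrays for Usp25, Usp53, Usp33, Usp1 and Usp45. Without them 0 of 39 USP genes passed by limma (0% of all probe sets), with 2 at an unadjusted p under 0.05. The interaction of genotype and drug passed for 0 of 39 USP genes by limma (0% of all genes), with 4 of 39 at an unadjusted p under 0.05, beside 868 of 10454. The smallest p-values were those of Usp45, Usp54, Usp25, Usp16 (−0.22, adjusted p = 0.642) and Usp33 (−0.17, adjusted p = 0.688). Leaving out SCA3 CCI-779 replicates 2 and 5 gave 0 of 39 for the interaction too (0% of all probe sets), with 2 at an unadjusted p under 0.05. These comparisons share arrays with the drug comparisons.

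Other parts of the ubiquitin system gave a setting for the family. Of 30 measured deubiquitinases outside the USP family or lacking a numbered symbol, 5 rose and 0 fell in wt, and 2 rose and 1 fell in SCA3, with medians of 0.06 and −0.03. Beside these, 11.5% of all genes rose and 1.64% fell in wt, and 11% rose and 6.09% fell in SCA3, with medians of 0.08 and 0.00. Zranb1, which cuts K29- and K33-linked chains, rose by 0.99 (SE 0.14, adjusted p = 0.000897) in wt and by 0.66 (SE 0.13, adjusted p = 0.00371) in SCA3. Mysm1, which acts on histone H2A, rose by 0.57 (adjusted p = 0.0151) and 0.73 (adjusted p = 0.0019). Otud1 (0.38), Yod1 (0.34) and Atxn3 (0.47), the gene of ataxin-3, rose in wt. Otud6b fell in SCA3 by 0.30 on the log2 scale (adjusted p = 0.00301), and Psmd14, the deubiquitinase of the proteasome lid, was at −0.20 there (adjusted p = 0.0568).

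Among 12 measured cofactors of USPs, 4 rose in wt and 3 rose and 1 fell in SCA3. The shares of all genes were 11.5% higher in wt, and 11% higher and 6.09% lower in SCA3. Gmps, a partner of Usp7, rose by 0.43 in wt (adjusted p = 0.00335) and 0.42 in SCA3 (adjusted p = 0.00187). Atxn7l1, an Atxn7 relative, rose by 0.89 (adjusted p = 0.00262) and 0.72 (adjusted p = 0.0039). Atxn7l3, the adaptor of Usp22 in SAGA, rose in SCA3 by 0.23 (adjusted p = 0.0338), with an SD of 0.19 under the drug and 0.04 under placebo. Usp22 was at −0.12 in SCA3 and did not pass (adjusted p = 0.264). Its lowest readings in the SCA3 drug group were 11.45 on replicate 2 and 11.44 on replicate 5, where the others gave 11.64 to 11.79. The differences of Atxn7l3 and Usp22 were not taken with this pair left out, so no contrast between them is drawn. Stam2 (0.63) and Dmwd (0.19) rose in wt, and Stam, a partner of Usp8, fell in SCA3 by 0.19 on the log2 scale (adjusted p = 0.0199). Of 6 genes of ubiquitin and its activating enzymes, Uba6 was the one tested under its symbol, at 0.11 in wt and 0.16 in SCA3 (adjusted p = 0.507 and 0.275).

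Markers of other cells moved with the drug as well. For the counts that follow, 1.64% of all genes fell in wt and 6.09% in SCA3, and 11.5% and 11% rose. Of 9 measured microglial markers, 3 fell in wt and 4 in SCA3, and 0 rose. Their summed intensity over 11 genes was 4248 to 4762 in wt placebo and 2857 to 3654 in wt CCI-779 mice, and 4194 to 4637 and 3025 to 3942 in SCA3. Of 11 measured oligodendrocyte markers, 0 passed in wt and 5 fell in SCA3, with sums of 81847 to 97825 and 70226 to 85663 in wt, and of 84567 to 109701 and 73764 to 81092 in SCA3. Of the neuron markers 2 rose and 1 fell in each genotype, and of 10 astrocyte markers 3 rose in wt and 2 in SCA3. The part of these markers in the USP differences was not tested.

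How far a USP call depended on the arrays and scaling differed by gene. Usp29 passed in 13 of 14 other settings in each genotype and without any 1 of the 19 arrays. Usp31 passed in 13 of 14 in SCA3 and in 7 of 14 in wt, and Usp45 in 12 and Usp25 in 10 of 14 in wt. Usp10 passed in 9 of 14 in SCA3 and 6 of 14 in wt. When 1 array was left out at a time, the Usp10 call held in 17 of 19 fits in SCA3 and in 3 of 19 in wt, with adjusted p up to 0.122 in wt. Usp54 passed in 8 of 14 settings and 14 of 19 such fits, and Usp2 in 6 of 14 and 13 of 19, all in wt. Usp40, which was tested only through its brighter drug groups, passed in 6 of 13 and 15 of 19 in wt, given as a description. In such fits Usp31 passed in 19 of 19 in SCA3 and 16 of 19 in wt. Usp39 passed as lower in 9 of 14 settings and 3 of 19 such fits in wt, and in 6 of 14 and 3 of 19 in SCA3. With a spike-in covariate 0 USP genes passed in either genotype by limma, with 1 in SCA3 and 2 in wt at an unadjusted p under 0.05. Nearly every gene lost its call there, since 1 of 20473 probe sets passed in SCA3 (0.00488%) and 0 in wt, while the median difference of the USP genes in wt was 0.083, beside 0.086 without the covariate. Without wt CCI-779 replicate 1, 4 USP genes passed in wt in place of 8 (3 higher, and Usp39 lower), and 6 in SCA3 in place of 3 (5 higher, and Usp39 lower), while 8.37% and 19.8% of all probe sets passed. The wt count was 4 without wt CCI-779 replicate 3, 3 without wt placebo replicate 2 or 4, and 5 without wt placebo replicate 3. The SCA3 count was 6 without SCA3 CCI-779 replicate 3, with 4 higher and 2 lower (Usp1 and Usp39).

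**Figure D4:**
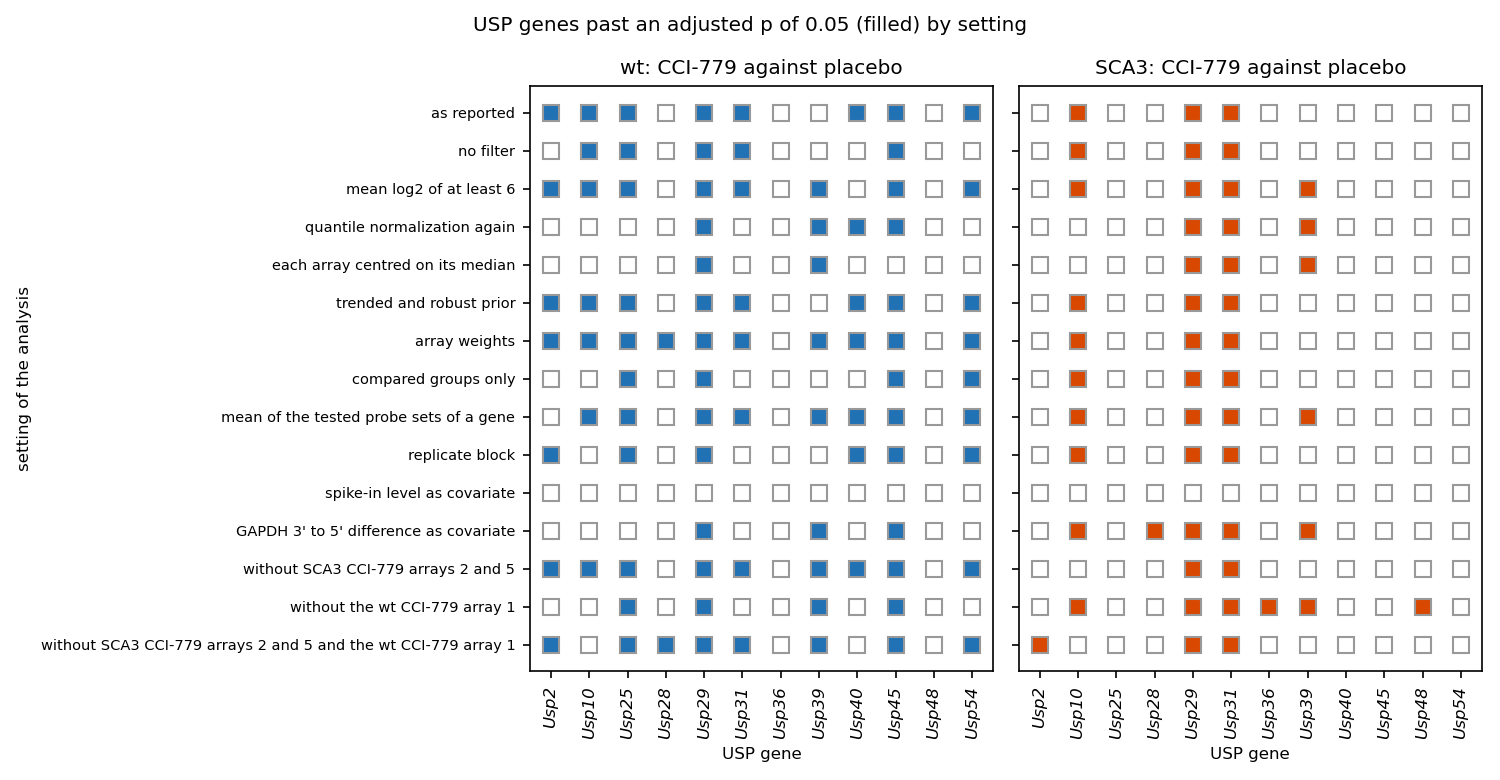
USP genes (x axis) past an adjusted p of 0.05 for CCI-779 against placebo, in either direction, under each setting of the analysis (y axis), filled where passed, in wt (left) and SCA3 mice (right). Usp29 is filled in every setting but the spike-in covariate in both genotypes, and Usp39, which lay lower under the drug, is filled under both other scalings.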

How the data were processed

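RNA from mouse brain was measured on 19 single-colour Affymetrix arrays. The values are intensity on a linear scale, in 1 table the authors deposited. Per the submitters' processing notes the tool was GCRMA, which models background from probe sequence, brings arrays to a common distribution and combines the probes of each set. Intensities of the 45101 probe sets spanned 2.26 to 73595, and log2 was taken with no pseudocount. The number of arrays limits the precision. The 64 control probe sets were left out. Probe sets whose mean log2 over all arrays reached 4 (20473) entered 1 limma 3.58.1 fit (R 4.3.3) of 4 group means, with 15 residual degrees of freedom, two-sided p-values and Benjamini-Hochberg adjustment over all tested probe sets of each of 5 contrasts at a threshold of 0.05.

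Each gene was counted through the brightest of its tested probe sets, and probe sets with several symbols named no gene. Of the 118 member probe sets, 116 matched the reference gene table by Entrez identifier, with no symbol changed. The fit was tested on simulated data with known changes. Named with values were the members past the threshold in any contrast, the 5 with the smallest p where fewer passed, members of which another probe set passed, the 5 brightest, and the 4 genes of smallest p from each other list in each drug contrast. The 8 members with the smallest p under the drug were given array by array. Yod1 and other members were named for their known roles or disagreeing probe sets, after their values were seen. Members and lists were chosen with earlier results of these data known. Alternatives were other filters, scalings, variance models, array weights, a replicate block, covariates, averaged probe sets and left-out arrays.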

Additional observations from a re-analysis of the deposited data

Results flagged for a closer look

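Among 80 groups of arrays, those of 20 USP probe sets named in the text, 4 held an array whose gap to the nearest other array was large for the range of its group by Dixon's criterion, which chance meets in about 1 of 20 groups. Usp10 was at 9.47 on SCA3 CCI-779 replicate 5, where the other arrays of the group lay at 9.30 to 9.34. Usp10 was also at 9.28 on SCA3 placebo replicate 1, against 9.10 to 9.14 on the others, and at 9.18 on wt CCI-779 replicate 5, against 9.37 to 9.43. Usp36 was at 7.05 on wt CCI-779 replicate 1, where the others lay at 6.83.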

How the results depend on the processing

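In wt, 8 USP genes passed under CCI-779, and 5 without the filter on low values, 4 with a further quantile normalization, 2 with each array centred on its median, 4 with only the compared groups in the fit, 0 with a spike-in covariate, 3 with the GAPDH 3′ to 5′ difference as a covariate and 4 without wt CCI-779 replicate 1. The share of all probe sets that passed in wt moved as well, from 11.9% to 3.52%, 9.47%, 10.4%, 6.66%, 0%, 3.76% and 8.37% in that order. With array weights 10 USP genes passed in wt (8 higher, and Usp39 and Usp28 lower), beside 16.7% of all probe sets. In SCA3, 3 passed, and 0 with the spike-in covariate, 5 with the GAPDH covariate (3 higher, 2 lower) and 6 without wt CCI-779 replicate 1, where the share of all went from 15.2% to 0.00488%, 15% and 19.8%. Leaving out each array in turn gave 3 to 8 in wt, 2 to 6 in SCA3, and 0 in both genotype comparisons and the interaction, which also held none under the other settings run. Restricting the fit to compared groups was not run for the interaction. The cause of these shifts was not tested. With the replicate number as a block, 6 USP genes passed in wt and 3 in SCA3; the deviations of same-numbered arrays correlated at −0.20 to 0.29 over 18 pairs, and the numbers were not taken as pairs. Averaging the probe sets turned Usp1 between SCA3 and wt mice given CCI-779 from −0.21 to 0.063 (adjusted p = 0.808). Leaving out SCA3 CCI-779 replicates 2 and 5 and wt CCI-779 replicate 1 together, a choice made after seeing the data, gave 8 in wt, of which 6 were higher and 2 lower (Usp39 and Usp28), with Usp10 and Usp40 lost, and 3 in SCA3 (Usp2, Usp29 and Usp31), with Usp10 lost. Signal limits Usp40, whose mean lay just above the filter, and the 8 genes under it.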

Other observations

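Usp29 was set beside its neighbours after its values were seen. Of 11 RefSeq genes within 100 kb of it, Usp29 included, 2 were measured above the filter. The other was Peg3, a zinc finger gene of the same imprinted domain. In wt mice Peg3 had a log2 intensity of 12.28 ± 0.05 (SD, n = 4) with placebo and 12.51 ± 0.11 (SD, n = 5) with the drug, a difference of 0.23 (SE 0.09, limma adjusted p = 0.113). In SCA3 it was at 12.34 ± 0.08 (SD, n = 5) and 12.45 ± 0.23 (SD, n = 5), a difference of 0.11 (SE 0.09, limma adjusted p = 0.438), and it passed in neither genotype.

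The largest drug difference of any USP probe set in SCA3 was on a dim second probe set of Usp12, singled out after its values were seen. On 1427478_at Usp12 was at −0.75 in SCA3 (SE 0.26, limma adjusted p = 0.0631) and −0.76 in wt (SE 0.28, limma adjusted p = 0.085), and neither passed. In wt CCI-779 this probe set was at 4.13 on replicate 1, which stood apart, and at 5.28 to 6.15 on the other arrays. The brightest Usp12 probe set, 1434483_at, differed by 0.01 in SCA3 and −0.05 in wt.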
